A study of Homo sapiens with 20 samples.

Results

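HUDEP-2 cells, an immortalized line of erythroid progenitors derived from human umbilical cord blood, lose stem cell factor (SCF) from their differentiation medium at day 6. Day 7 was compared with day 6 across that withdrawal. Of the 20 RNA-seq libraries of the time course, 4 entered the comparison directly, 2 of day 6 and 2 of day 7. The other libraries, of days 0 to 5, 8 and 12, were used to estimate the spread between libraries of the same day. The cells were labelled wild type. Erythropoietin (EPO), insulin, heparin, transferrin and serum were in the medium on both days. So was doxycycline, which keeps the viral oncogenes of this line switched on and was taken out only on day 8. No culture kept SCF beyond day 6, so a day of further differentiation and the loss of SCF cannot be told apart. Whether the day 6 cells were collected before or after the change of medium is not stated. HUDEP-2 is 1 line kept dividing by oncogenes, which limits it as a model of primary erythroblasts. The 2 libraries of a day are described as biological replicates, without saying whether they came from separate cultures, so the p-values below measure the spread between these libraries, which may be technical. The labelled cell type was checked against 12 erythroid marker genes, whose levels summed to 101000 and 115000 TPM (transcript abundance scaled for length and library size) on day 6 and to 207000 and 202000 TPM on day 7. Most of each sum was beta globin, HBB, at 73740 and 73270 TPM on day 6 and 144700 and 139200 TPM on day 7.

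SCF is the ligand of KIT, a receptor tyrosine kinase of hematopoietic progenitors and mast cells. Bound KIT recruits adaptors and Src family kinases and signals through the RAS-ERK and PI3K-AKT pathways. In the erythroid lineage SCF is known to act together with EPO to expand progenitors, and KIT is lost as erythroblasts mature. In the culture scheme of the study, days 4 to 6 give basophilic and day 8 polychromatic erythroblasts.

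The libraries of 1 deposited table that spans all days are called series A here, and those of the tables split by day are called series B. In series A days 6 and 7 stood in the same table, while in series B they came from different tables, so table and day cannot be told apart there. The 4 libraries held 55079862 (series A) and 64824784 (series B) counts on day 6, and 52709213 (series A) and 59613265 (series B) counts on day 7. Ribosomal RNA took 18.5% of the counts of the series B library of day 7 and 17.5% of that of day 8, against 1.03% to 4.08% in the other 18 libraries. The summed share of replication-dependent histone genes was 0.0509% in that day 7 library and 0.00484%, 0.0103% and 0.00607% in the other libraries of days 6 and 7. Each change was therefore read in both series, and counts are given below without the series B libraries of days 7 and 8 as well, that is, with series A alone for those days. Between the libraries of a day, 69.8% of genes on day 6 and 72.3% on day 7 differed by more than sampling noise, so no library was a copy of another. Levels below are counts scaled to library size with TMM factors (CPM), given for series A first and series B second. At these depths 3 counts, the limit that a count of 0 allows, correspond to 0.0485 and 0.0424 CPM on day 6 and to 0.0579 and 0.0597 CPM on day 7, for counting error only.

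From day 6 to day 7 the RNA of the cytokine receptor CSF2RB, the kinase LYN, the mast cell tryptases and the enzymes PKM and ENO1 fell, and that of EPOR, KLF1, beta globin and the Rh blood group genes rose. Of 16784 genes tested, 431 (2.57%) had an adjusted p under 0.05 (edgeR quasi-likelihood test, Benjamini-Hochberg adjustment over all genes, 2 libraries a day). Of these, 283 (1.69%) fell and 148 (0.882%) rose. All 431 moved in the same direction in series A and in series B, with no overlap between the days. Without overlap were also 23.7% of all genes tested in the higher direction and 24.3% in the lower, most of which the test did not call. The falls were the steeper changes. The median log2 fold change of the genes that fell was −1.58, or −1.54 with genes at 0 counts on day 7 set to their bound, and that of the genes that rose was 0.968. On that bounded scale 195 of the falls and 66 of the rises were at least 2-fold. In 23 of the genes that fell neither library of day 7 held a count. The median over all genes tested was 0. In a bulk sample, fewer cells of a type and less RNA per cell cannot be told apart. On the TPM scale, where the median of the 11557 genes of at least 1 CPM moved by −0.333 on the log2 scale, limma called 117 genes higher and 1538 lower. Without the series B libraries of days 7 and 8, which left 1 library for day 7, 29 genes were called higher and 98 lower. A fit of the 4 libraries alone called 0 genes, with 2310 of 14344 at an unadjusted p under 0.05.

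**Figure D1:**
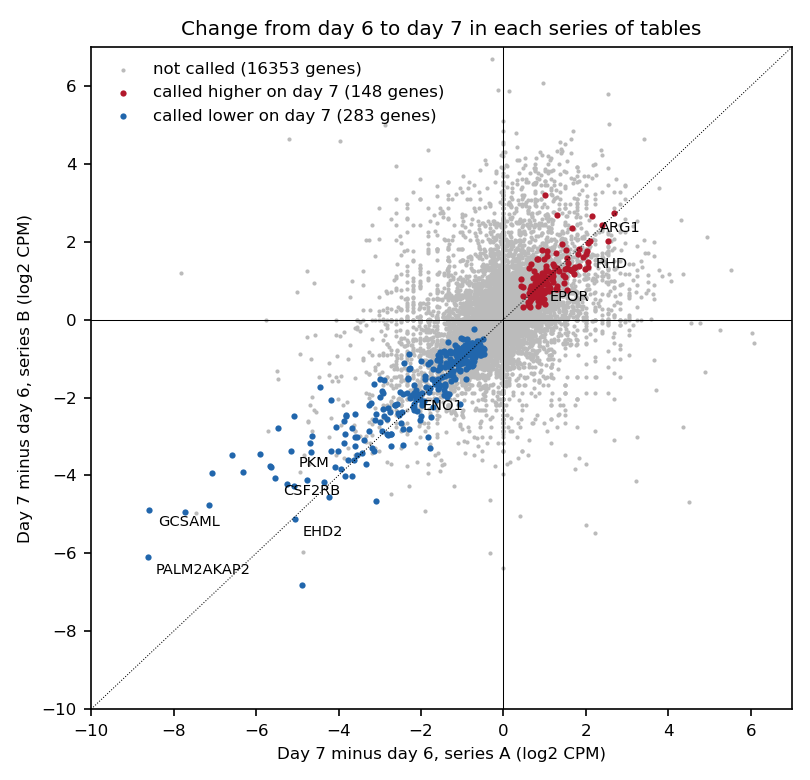
Change of each tested gene from day 6 to day 7, as the difference in log2 CPM within series A (horizontal axis) and within series B (vertical axis). Each point is a gene, and the dotted line marks equal change. The 148 genes called higher and the 283 called lower lie at the upper right and the lower left, and the falls reach further from 0 than the rises.

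The neighboring daily steps were tested in the same fit. edgeR called 0 genes from day 4 to 5 (113 at an unadjusted p under 0.05), 0 from day 5 to 6 (92) and 0 from day 7 to 8 (217). From day 6 to 7, 3301 genes had an unadjusted p under 0.05. With a term for the series of tables, 929 genes were called higher and 1345 lower from day 6 to 7, and 0, 0 and 1 genes were called in either direction at the other steps. DESeq2 called 697 higher and 1057 lower from day 6 to 7, and 0, 0 and 1 at the other steps. Of these daily steps only that from day 6 to 7 crossed from 1 table to another in series B. Ribosomal RNA there went from 1.77% to 18.5% of counts. In series B the change of table and the step cannot be told apart. The daily counts alone do not test whether one step differs from another. That test, the step from day 6 to 7 against the mean daily step of days 4 to 6, is given below.

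**Figure D2:**
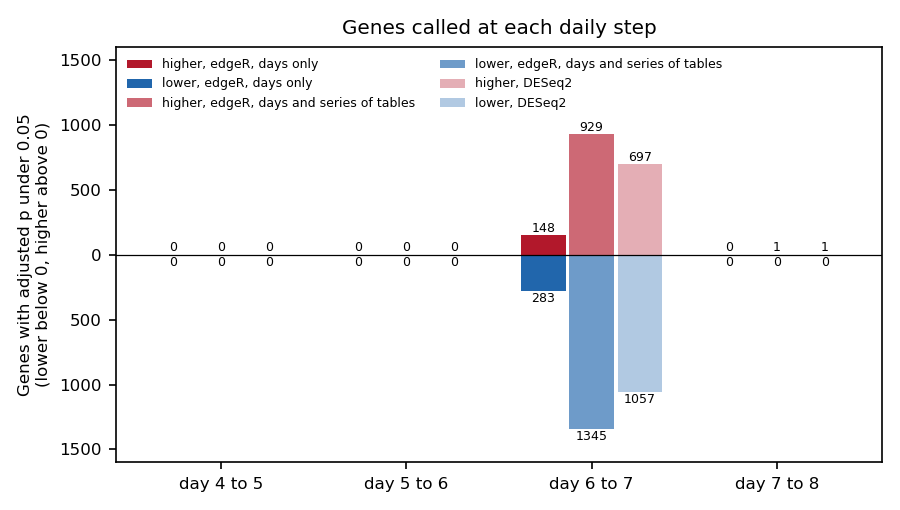
Number of genes with an adjusted p under 0.05 at each of 4 daily steps (bars above 0: higher on the later day; bars below 0: lower), for 3 fits of the same 20 libraries. The step from day 6 to 7 has 148 to 929 genes called higher and 283 to 1345 called lower, and the other steps have at most 1. Among these steps, series B changes table only from day 6 to 7.

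KIT RNA was lower on day 7 in both series without passing the test. KIT stood at 271 and 163 CPM on day 6 and 108 and 45.2 CPM on day 7 (log2 fold change −1.5, SE 0.57, adjusted p = 0.169). The days did not overlap, and the libraries of day 7 differed from each other by over 2-fold. KIT had stood at 614 and 741 CPM on day 0 and 259 and 221 CPM on day 4, and it was at 110.5 and 28.2 CPM on day 8. Its step to day 7 was −1.43 on the log2 scale relative to the mean daily step of days 4 to 6 (adjusted p = 0.675). KITLG, which encodes SCF, had 0 counts in the 4 libraries. In the list of 25 genes of the receptor complex, 3 genes fell and 1 rose, where 1.69% of all genes tested fell and 0.882% rose. The same shares of all genes stand behind each list below. The list's median log2 fold change was −0.147, and that of all genes was 0. The 3 falls were not called with series A alone for days 7 and 8, where SH2B3 was called higher and the adaptor gene GAB2 lower. GAB2 fell from 22 to 7.88 CPM in series A but rose from 18.3 to 26.65 CPM in series B. With all libraries its days overlapped (adjusted p = 0.887). LYN, a Src family kinase that binds KIT, stood at 91.9 and 86.6 CPM on day 6 and 31.2 and 27.1 CPM on day 7 and fell 3.06-fold (log2 fold change −1.62, SE 0.25, adjusted p = 0.0055). VAV1, an exchange factor that activates RAC downstream of the receptor, stood at 1.05 and 0.58 CPM on day 6 and 0 and 0 CPM on day 7. With 0 counts in both libraries of day 7, it was at least 13.9-fold lower (adjusted p = 0.0132). DOK2, an adaptor that restrains RAS, stood at 0.34 and 0.226 CPM on day 6 and 0 and 0 CPM on day 7 and was at least 4.81-fold lower (adjusted p = 0.0422). SH2B3, also known as LNK, an adaptor that dampens KIT and JAK2 signaling, rose 1.67-fold from 109 and 121 CPM to 187 and 197 CPM (log2 fold change 0.74, SE 0.13, adjusted p = 0.0129). PTPN6, the phosphatase SHP-1, was at 5.5 and 1.15 CPM on day 6 and 0.328 and 0.398 CPM on day 7 and missed the test (adjusted p = 0.0747). The core adaptor GRB2 was at 86.9 and 86.4 CPM on day 6 and 92.9 and 80.3 CPM on day 7, with overlapping days. SHC1 and SOS1, which work with it, had log2 fold changes of 0.20 and −0.20 and did not pass the test either.

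Of 27 tested genes that report RAS-ERK activity, 3 fell and 0 rose, against 1.69% and 0.882% of all genes. Lower on day 7 without overlap were 11 of them, against 24.3% of all genes, and the median log2 fold change was −0.189. Higher without overlap were 2, against 23.7% of all genes. These were DUSP1 and IER5, with log2 fold changes of 1.06 and 0.88 (adjusted p = 0.249 and 0.122). With the term for the series of tables, 7 members were called lower and 3 higher, the latter DUSP1, IER5 and JUNB. ETV4, an ETS transcription factor induced by ERK, stood at 2.23 and 1.36 CPM on day 6 and 0.0579 and 0.0995 CPM on day 7 (log2 fold change −4.48, SE 0.52, adjusted p = 0.00234). SPRY4, a feedback inhibitor of receptor tyrosine kinases, stood at 1.25 and 1.02 CPM on day 6 and 0.0386 and 0.219 CPM on day 7 (log2 fold change −3.12, SE 0.71, adjusted p = 0.0372). CCND1, cyclin D1, fell 3.06-fold, from 36.3 and 34.4 CPM to 14 and 9.17 CPM (log2 fold change −1.61, SE 0.31, adjusted p = 0.0158). These 3 falls were also called with series A alone for days 7 and 8. The phosphatase DUSP6, another ERK-induced feedback gene, had a log2 fold change of 0.13 (adjusted p = 0.92), SPRY2 one of −0.74 (adjusted p = 0.107) and MYC one of −0.75 (adjusted p = 0.14). EGR1 and FOS differed widely between the series, at 5.32 and 73 CPM and at 0.647 and 39.2 CPM on day 6. Their days overlapped (adjusted p = 0.342 and 0.806). JUN and FOSB had log2 fold changes of 2.03 and 1.61, also with overlapping days (adjusted p = 0.298 and 0.704).

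A list of 22 genes, made of FOXO factors themselves and of genes in the FOXO and PI3K-AKT response, leaned upward. Of these, 13 were higher on day 7 without overlap, with a median of 0.701 and 1 call (23.7% of all genes were higher without overlap). That call, also made with series A alone for days 7 and 8, was FOXO4 itself, from 33.8 and 38.4 CPM to 58.3 and 65 CPM (log2 fold change 0.77, SE 0.14, adjusted p = 0.013). FOXO3, the family member best known in erythroid cells, was at 188 and 236 CPM on day 6 and 365 and 458 CPM on day 7 and missed the test (adjusted p = 0.0826). PIK3IP1, an inhibitor of PI3K, was at 2.77 and 4.52 CPM on day 6 and 10.4 and 19.4 CPM on day 7 (adjusted p = 0.065), and TXNIP, a FOXO-responsive gene of glucose uptake control, at 200 and 229.6 CPM on day 6 and 426 and 743 CPM on day 7 (adjusted p = 0.0568). With the term for the series of tables, 12 members of the list were called higher and 1 lower.

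EPOR, the receptor of the cytokine that stayed in the medium, rose. It stood at 161 and 193 CPM on day 6 and 304 and 359 CPM on day 7, a 1.87-fold rise (log2 fold change 0.91, SE 0.15, adjusted p = 0.00831). It had stood at 162 and 155 CPM on day 4. Its step to day 7 was 0.83 on the log2 scale relative to the mean daily step of days 4 to 6 and was not called (adjusted p = 0.2). CISH, a suppressor induced by STAT5 downstream of EPOR, stood at 109 and 125 CPM on day 6 and 204 and 268 CPM on day 7 and rose 2.02-fold (log2 fold change 1.01, SE 0.21, adjusted p = 0.0261). The remaining 14 genes of the EPO receptor and STAT5 list did not pass the test, and the list's median was 0.527. ERFE, the erythroid hormone erythroferrone, was at 110.5 and 165 CPM on day 6 and 269 and 359 CPM on day 7 (adjusted p = 0.0579). STAT5A pointed the other way, at 157 and 109.5 CPM on day 6 and 77.1 and 46.8 CPM on day 7 (adjusted p = 0.0874). BCL2L1, which encodes the survival protein BCL-XL, was at 92.4 and 134 CPM on day 6 and 204 and 279.8 CPM on day 7 (adjusted p = 0.0884). With series A alone for days 7 and 8, 0 genes of this list were called.

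The 12 largest falls, among genes of at least 1 CPM on the higher day, included receptors, adaptors and proteases best known outside the red cell lineage. EHD2, an ATPase of caveolae, stood at 1.03 and 1.07 CPM on day 6 and 0 and 0 CPM on day 7 and was at least 17.9-fold lower (adjusted p = 0.00867). PALM2AKAP2, a membrane and kinase-anchoring protein, fell 135-fold, from 58.4 and 48.6 CPM to 0.116 and 0.677 CPM (log2 fold change −7.08, SE 0.73, adjusted p = 0.000474). GCSAML stood at 12.2 and 9.7 CPM on day 6 and 0 and 0.298 CPM on day 7 (log2 fold change −6.20, SE 0.86, adjusted p = 0.00282). All libraries of day 6 were above those of day 7 for these genes, which was a condition for entering this group. CSF2RB, the shared beta chain of the receptors for IL-3, IL-5 and GM-CSF, fell 33.2-fold, from 12.2 and 5.53 CPM to 0.232 and 0.298 CPM (log2 fold change −5.05, SE 0.68, adjusted p = 0.00252). It had stood at 106.5 and 143.9 CPM on day 0 and 23.6 and 8.29 CPM on day 4. Each gene among these largest falls was already lower on day 4 than on day 0 in both series. CST7, a leukocyte inhibitor of cathepsins, had 249 counts on day 6 and 3 on day 7 over both libraries, a ratio of 63.9 with a 95% exact counting interval of 21.6 to 312 (adjusted p = 0.0129). NCF4, a subunit of the phagocyte oxidase, had 183 and 3 counts, a ratio of 47 with an interval of 15.8 to 230.0 (adjusted p = 0.00234). SAMD5 (4.35 and 3.55 CPM to 0.116 and 0 CPM), the kinesin KIFC3 (1.93 and 2.05 CPM to 0.0193 and 0.0796 CPM), the receptor phosphatase PTPRB (1.88 and 1.41 CPM to 0 and 0.0995 CPM) and ZNF521, a zinc finger factor of immature blood cells (3.02 and 2.08 CPM to 0 and 0.159 CPM), completed this group together with 2 tryptase genes.

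Those were TPSAB1 and TPSB2, the major tryptases of mast cells, a lineage that depends on KIT. TPSAB1 stood at 35.5 and 70.5 CPM on day 6 and 0.135 and 2.25 CPM on day 7 (log2 fold change −5.48, SE 1.20, adjusted p = 0.0311). TPSB2 stood at 42.9 and 86.7 CPM on day 6 and 0.27 and 3.14 CPM on day 7 (log2 fold change −5.25, SE 1.07, adjusted p = 0.0234). The 2 genes are near-identical copies, so the split of reads between them is uncertain, and series B was higher than series A on both days. Summed over the 7 mast cell and basophil markers the level was 156 and 277 TPM on day 6 and 0.592 and 7.59 TPM on day 7. CPA3, HDC, FCER1A and CMA1, further markers of mast cells and basophils, were at 0 in the 4 libraries, and MS4A2 was at 0 in all but the series B library of day 6. Both tryptases were called with series A alone for days 7 and 8 as well. TPSAB1 had stood at 241 and 486 CPM on day 0 and at 61.9 and 97.8 CPM on day 4, so it was already lower on day 6 than at the start.

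The change from day 6 to 7 was set against the mean daily step of days 4 to 6 in the same fit. For 24 genes (0.143% of those tested) the day 7 step was lower than the earlier steps, and for 0 genes it was higher (edgeR, adjusted p under 0.05; 1320 genes at an unadjusted p under 0.05; DESeq2 called 168 lower and 55 higher). All 24 also fell from day 6 to 7. In series B the day 7 step, unlike the earlier ones, also crossed from 1 table to another. With series A alone for days 7 and 8, 15 genes were called lower, 8 of them among these 24. PALM2AKAP2 stood at 73.1 and 77.2 CPM on day 4, 51.5 and 46.6 on day 5, 58.4 and 48.6 on day 6, 0.116 and 0.677 on day 7 and 0.386 and 0.757 on day 8. Its day 7 step was −6.83 on the log2 scale relative to the earlier steps (adjusted p = 0.00331). ELMO1, which with DOCK proteins activates RAC, held 18.4 and 16.6 CPM on day 4, 14 and 12.7 on day 5 and 17 and 14.5 on day 6, then 2.12 and 3.66 on day 7 and 2.26 and 2.83 on day 8 (relative step −2.37, adjusted p = 0.00331). Day 8 stayed near day 7 for both genes. On day 0 PALM2AKAP2 had stood at 355 and 508 CPM and ELMO1 at 104 and 104 CPM, so both had already fallen by day 4. The formin FMNL1 fell from 7.57 and 5.3 CPM to 0.502 and 0.298 CPM (relative step −3.61, adjusted p = 0.0133). RHOH, a hematopoietic GTPase, fell from 2.65 and 1.57 CPM to 0.154 and 0.179 CPM (relative step −3.34, adjusted p = 0.0341). F2R and F2RL3, the thrombin receptors PAR1 and PAR4, had relative steps of −3.55 and −4.57 (adjusted p = 0.00807 and 0.0246). F2R stood at 5.08 and 4 CPM on day 6 and 0.251 and 0.358 CPM on day 7, and F2RL3 at 2.73 and 2.12 CPM on day 6 and 0.116 and 0.0597 CPM on day 7. CRYBB3, a crystallin of low level, had 0 counts in both libraries of day 7 but 0.841 and 0.523 CPM on day 6 and 0.463 and 0.901 CPM on day 8.

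**Figure D3:**
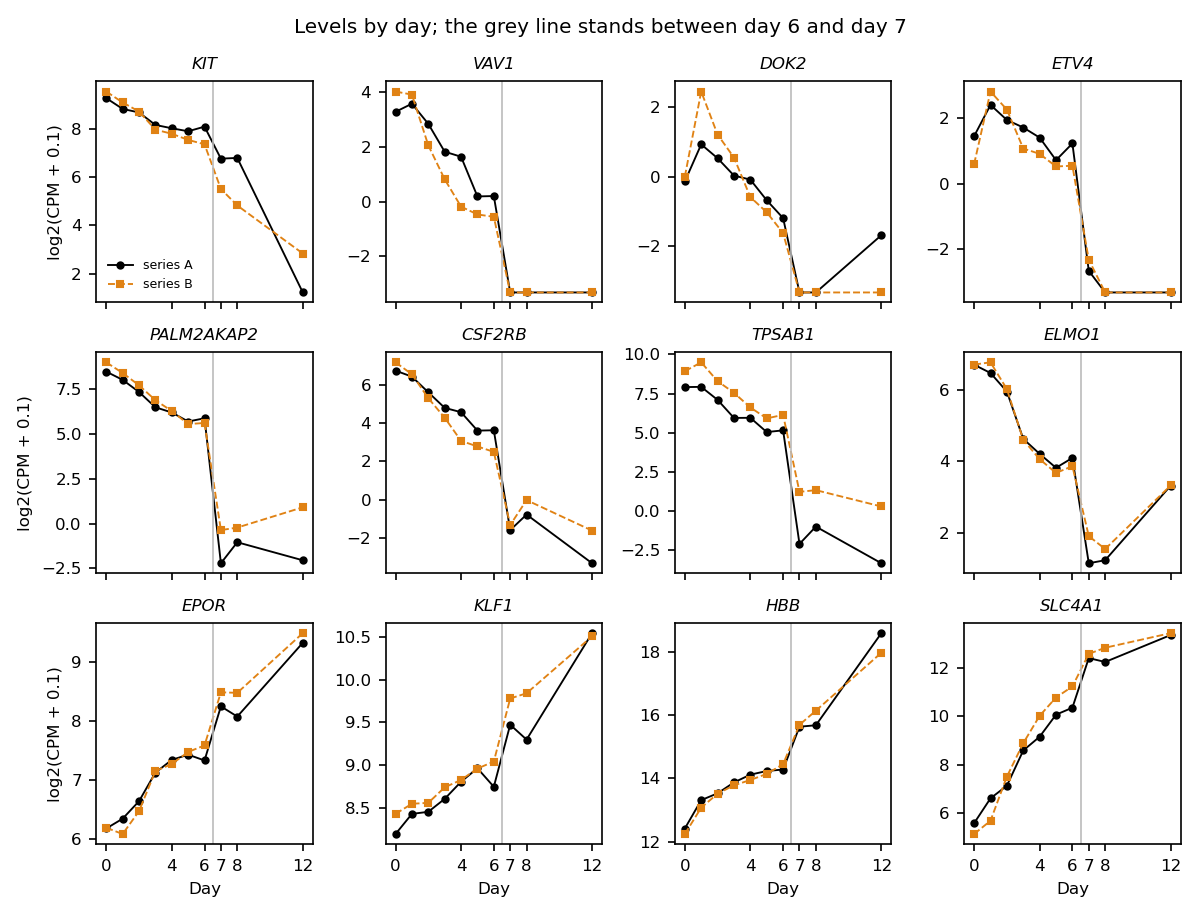
Levels of 12 genes from day 0 to day 12 as log2(CPM + 0.1), with a line for each series of tables; the grey line stands between day 6 and day 7. ETV4, PALM2AKAP2, CSF2RB, TPSAB1 and ELMO1 drop between days 6 and 7 in both series. KIT, PALM2AKAP2, CSF2RB, TPSAB1 and ELMO1 are also lower on day 4 than on day 0. EPOR, KLF1, HBB and SLC4A1 are higher on day 7 than on day 6.

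Erythroid transcription factors rose and progenitor factors fell among those that passed the test. Of 20 erythroid factors tested, 5 rose, 0 fell, and the median log2 fold change was 0.533. KLF1, the activator of adult globin and many late erythroid genes, rose 1.66-fold, from 429 and 526 CPM to 710 and 879 CPM (log2 fold change 0.74, SE 0.17, adjusted p = 0.0433). E2F2, the E2F member tied to terminal erythroid divisions, rose 2.7-fold, from 78.8 and 118 CPM to 243 and 286 CPM (log2 fold change 1.43, SE 0.25, adjusted p = 0.00898). KLF3, a repressor in the KLF1 network, MAFG, a partner of NFE2, and GFI1B, a repressor of progenitor genes, rose as well, with log2 fold changes of 0.83, 0.97 and 0.48 (adjusted p = 0.0142, 0.0238 and 0.0493). GATA1 was at 186 and 198 CPM on day 6 and 231 and 268 CPM on day 7 and did not pass the test (adjusted p = 0.135). On the TPM scale its values were 296 and 279 on day 6 and 283 and 302 on day 7, so that its days overlapped there. With series A alone for days 7 and 8, 1 of the 20 factors, E2F2, was called higher.

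Of 13 tested transcription factors of progenitors, 3 fell, 0 rose, and the median was −0.679. HHEX, a homeobox factor, fell 7.53-fold, from 19.98 and 25.1 CPM to 1.39 and 4.6 CPM (log2 fold change −2.91, SE 0.60, adjusted p = 0.0238). SPI1, the myeloid factor PU.1, which opposes GATA1, had stood at 12.5 and 20.5 CPM on day 0. It was at 1.76 and 2.02 CPM on day 6 and 0.367 and 0.398 CPM on day 7 (log2 fold change −2.30, SE 0.39, adjusted p = 0.00831). IKZF2, the factor Helios, had 100 counts on day 6 and 3 on day 7, a ratio of 25.7 with a 95% exact counting interval of 8.53 to 127 (adjusted p = 0.00639). GATA2, the GATA factor of progenitors, was at 93.2 and 123 CPM on day 6 and 35.7 and 49.9 CPM on day 7 and missed the test (adjusted p = 0.0771). MYB was at 229 and 154 CPM on day 6 and 113 and 67.9 CPM on day 7 (adjusted p = 0.0959), and MYC at 521 and 408 CPM on day 6 and 317 and 236 CPM on day 7 (adjusted p = 0.14). For GATA2, MYB and MYC the days did not overlap. HHEX was the 1 call of this list with series A alone for days 7 and 8.

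Among the 12 largest rises, again of genes of at least 1 CPM, were blood group, globin and transport genes of the red cell. ARG1, the arginase of red cells and liver, rose 5.57-fold, from 1.34 and 1.65 CPM to 6.06 and 10.7 CPM (log2 fold change 2.48, SE 0.43, adjusted p = 0.0103). HBM, the mu globin gene of the alpha cluster, rose 4.14-fold, from 76.1 and 84.8 CPM to 324 and 342 CPM (log2 fold change 2.05, SE 0.23, adjusted p = 0.000816). RHD and RHCE, the carriers of the Rh blood group antigens, are near-identical copies, and the split of reads between them is uncertain. RHD stood at 14.3 and 20.2 CPM on day 6 and 58.7 and 68.2 CPM on day 7 (log2 fold change 1.88, SE 0.29, adjusted p = 0.00604), and RHCE at 10.7 and 15.9 CPM on day 6 and 44.6 and 44.2 CPM on day 7 (log2 fold change 1.74, SE 0.32, adjusted p = 0.0139). The other red cell genes of this group were TSPO2, an erythroid membrane protein (5.71 and 11.1 CPM to 22.9 and 35.6 CPM), the tetraspanin TSPAN5 (12.9 and 18.6 CPM to 53.8 and 72.3 CPM) and the ATP and pyrophosphate exporter ANKH (18.2 and 23 CPM to 69.9 and 70.8 CPM). B3GNT8, a glycosyltransferase, IL1R1, an interleukin-1 receptor, and HEPACAM2 rose from low levels, with log2 fold changes of 2.22, 1.84 and 1.77. RPL23AP1 and PKD1P3 are pseudogenes whose reads may belong to their parent genes.

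Start-site windows of 300 bases (250 before and 50 after the RefSeq start, GRCh38.p14) were searched on both strands for AGATAA, the letters GATA factors bind, at the first start listed for each gene. These letters were in the windows of 4 of the 10 largest rises that had one (ARG1, RHD, TSPO2 and RHCE), in 9.4% of 117 genes called higher, in 5.99% of 217 called lower, in 5.57% of 11459 genes tested and in 10.5% of all 27305 genes in the table. Such a match is a description of letters, not of a bound site. Of the 12 largest falls, 3 had a window, and none of these held AGATAA. CCACACCC, a KLF1-type motif, was in 0.855% of genes called higher and 2.98% of those tested, and CACGTG, an E-box, in 12.8% and 10.3%. GAGGAAG, a PU.1-type motif, was in 16.1% of genes called lower and 14% of those tested, and TGACTCA, an AP-1 motif, in 5.53% and 3.12%. For each of these 4 rising genes a window of 100 bases that lies before the start and holds the letters is printed 5′ to 3′ on the gene's strand, with AGATAA in capitals. The RHCE window lies before the second start listed for that gene, since at the first listed start the letters lie after the start.
ARG1 (chr6:131573123-131573222, + strand): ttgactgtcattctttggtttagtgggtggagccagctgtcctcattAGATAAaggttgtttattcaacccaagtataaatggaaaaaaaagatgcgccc
RHD (chr1:25272386-25272485, + strand): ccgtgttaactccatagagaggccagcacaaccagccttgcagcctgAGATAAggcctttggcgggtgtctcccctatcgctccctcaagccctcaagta
RHCE (chr1:25420849-25420948, - strand): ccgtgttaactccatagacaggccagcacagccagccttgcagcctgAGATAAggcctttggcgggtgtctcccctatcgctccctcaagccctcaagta
TSPO2 (chr6:41042367-41042466, + strand): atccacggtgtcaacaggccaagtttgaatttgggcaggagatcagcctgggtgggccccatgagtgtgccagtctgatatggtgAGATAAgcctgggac
The first base of the motif lay 56 bases before the start of ARG1, 53 before that of RHD, 76 before the second listed start of RHCE and 15 before that of TSPO2. The RHD and RHCE windows were identical at 98 of 100 bases, so the paralogs share the stretch that carries the motif.

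Of 10 globin genes, 3 rose, 0 fell, and the median log2 fold change was 1.23. HBB, beta globin, rose 2.46-fold, from 19910 and 22390 CPM to 50940 and 53120 CPM (log2 fold change 1.30, SE 0.21, adjusted p = 0.00657). HBD, delta globin, rose 2.86-fold, from 565 and 886 CPM to 1877 and 2267 CPM (log2 fold change 1.51, SE 0.30, adjusted p = 0.0222). The alpha globin copies HBA1 and HBA2 share reads, and HBA2 was at 4776 and 8042 CPM on day 6 and 15460 and 15490 CPM on day 7 (adjusted p = 0.0536). The fetal genes HBG1 and HBG2, also near-identical, had log2 fold changes of 1.09 and 1.19 (adjusted p = 0.332 and 0.217). Globin genes together took 3.36% and 4.39% of counts on day 6 and 8.32% and 7.5% on day 7. HBB and HBM were also called with series A alone for days 7 and 8.

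Of 26 genes of heme synthesis and iron supply, 4 rose, against 0.882% of all genes, 0 fell, and 21 were higher on day 7 without overlap, against 23.7% of all genes (median 0.534). Among the 4 were enzymes of the heme pathway. UROS, which closes the porphyrin ring, stood at 110 and 158 CPM on day 6 and 239 and 279 CPM on day 7 (log2 fold change 0.95, SE 0.20, adjusted p = 0.0258). UROD, which acts on its product, stood at 367 and 476 CPM on day 6 and 656 and 605 CPM on day 7 (log2 fold change 0.58, SE 0.12, adjusted p = 0.0268). PPOX, the enzyme before the last, stood at 111 and 110.1 CPM on day 6 and 172 and 191 CPM on day 7 (log2 fold change 0.72, SE 0.14, adjusted p = 0.0224). ALAS2, the erythroid enzyme that starts the pathway, was at 704 and 984 CPM on day 6 and 1618 and 1912 CPM on day 7 and missed the test (adjusted p = 0.0725). UROS, UROD and PPOX were not called with series A alone for days 7 and 8, where the list had 1 call.

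Of 32 genes of the red cell membrane and its skeleton, 7 rose, 0 fell, and 29 were higher on day 7 without overlap (median 0.762). Of all genes tested, 0.882% rose and 23.7% were higher without overlap. SLC4A1, the anion exchanger band 3, rose 3.1-fold, from 1311 and 2407 CPM to 5414 and 6108 CPM (log2 fold change 1.63, SE 0.39, adjusted p = 0.0463). SLC2A1, the glucose transporter GLUT1, rose 2.68-fold, from 249 and 367 CPM to 724 and 922 CPM (log2 fold change 1.42, SE 0.29, adjusted p = 0.0228). ACKR1, the Duffy antigen, stood at 7.93 and 9.25 CPM on day 6 and 18.5 and 24.1 CPM on day 7 (log2 fold change 1.31, SE 0.24, adjusted p = 0.0136). KEL, the Kell antigen, stood at 106 and 118 CPM on day 6 and 198 and 183 CPM on day 7 and rose 1.7-fold (adjusted p = 0.0311). RHD and RHCE, described above, also belong to this list. The count was 1, RHD, with series A alone for days 7 and 8 and 21 with the term for the series of tables.

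Of 30 genes of late maturation, 5 rose (0.882% of all genes), 0 fell, and 26 were higher on day 7 without overlap (23.7% of all genes), with a median of 0.715. Besides EPOR and TSPAN5 these were SELENBP1, a selenium-binding protein (51.2 and 89.6 CPM to 150.4 and 244 CPM, log2 fold change 1.49, adjusted p = 0.0381), the oxysterol-binding protein gene OSBP2 (log2 fold change 1.01, adjusted p = 0.0408) and the ubiquitin ligase gene MKRN1 (log2 fold change 0.60, adjusted p = 0.0311). TRIM10, a tripartite motif gene of the erythroid lineage, was at 67.7 and 102 CPM on day 6 and 269.6 and 173 CPM on day 7 and missed the test (adjusted p = 0.0616). Series A rose more than series B for TRIM10, and the days did not overlap. With series A alone for days 7 and 8, 0 of these 30 genes were called.

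**Figure D4:**
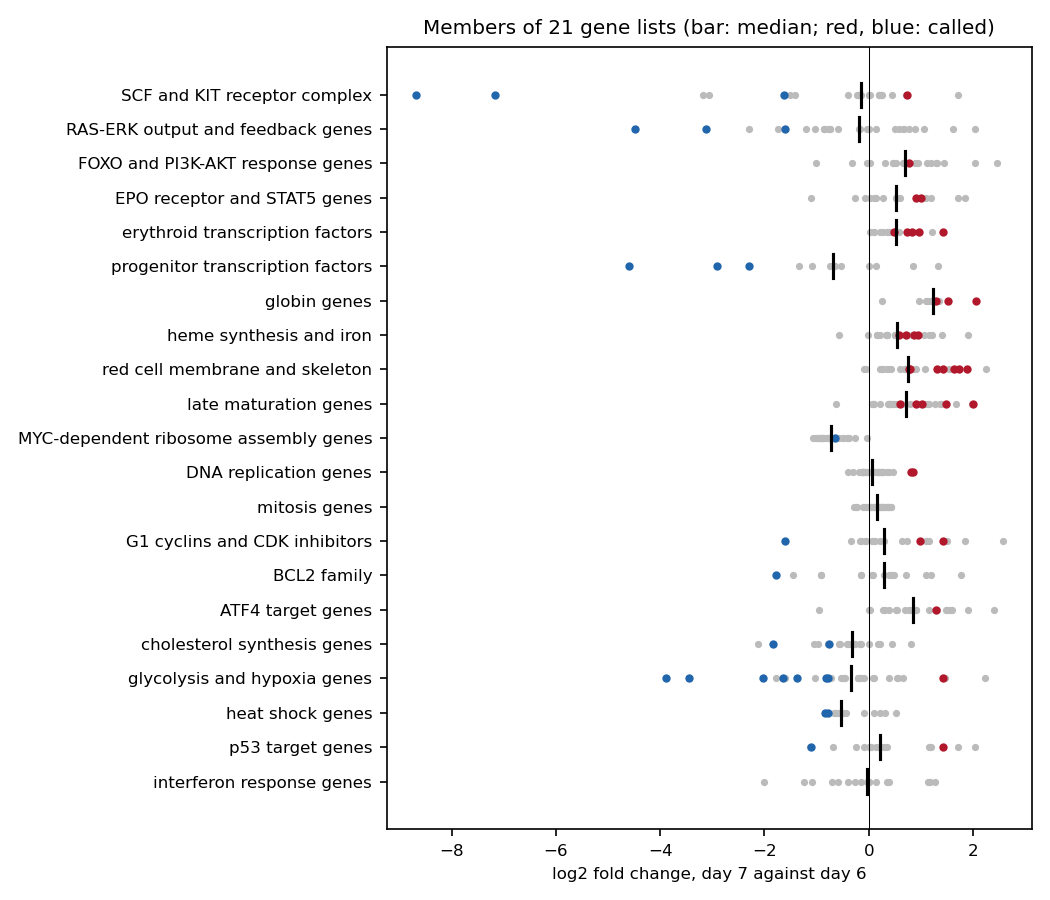
log2 fold change from day 6 to day 7 of the tested members of 21 gene lists (grey: not called; red: called higher; blue: called lower; bar: median of the list). Globin genes have a median of 1.23 and ribosome assembly genes one of −0.73, and the largest falls belong to the receptor complex, RAS-ERK, progenitor factor and glycolysis lists.

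Several enzymes of glycolysis fell. Of 28 tested genes of glycolysis and the hypoxia response, 7 fell and 1, the transporter SLC2A1, rose (median −0.338). PKM, the pyruvate kinase of progenitors and most tissues, fell 14.7-fold, from 26 and 37.5 CPM to 0.695 and 3.62 CPM (log2 fold change −3.88, SE 0.78, adjusted p = 0.0214). It had stood at 313 and 284 CPM on day 0 and 65.9 and 47.3 CPM on day 4. Its step to day 7 was not called against the mean daily step of days 4 to 6 (relative step −3.46, adjusted p = 0.241). PKLR, the pyruvate kinase of red cells, had 419.6 and 293 CPM on day 6 and 392 and 229 CPM on day 7, with overlapping days (log2 fold change −0.20, adjusted p = 0.849). HK2, an inducible hexokinase, fell 10.9-fold, from 25.4 and 8.79 CPM to 2.34 and 0.796 CPM (log2 fold change −3.44, SE 0.82, adjusted p = 0.0453). HK1, the main hexokinase of red cells, was at 846 and 885 CPM on day 6 and 1053 and 813 CPM on day 7 (log2 fold change 0.11, adjusted p = 0.705). PFKP, the platelet-type phosphofructokinase, fell 2.59-fold, from 40.6 and 39.1 CPM to 16.2 and 14.6 CPM (log2 fold change −1.37, SE 0.17, adjusted p = 0.00144), and the liver-type PFKL was at 178 and 139 CPM on day 6 and 185 and 149.6 CPM on day 7 (log2 fold change 0.08, adjusted p = 0.924).

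ENO1, enolase 1, fell 4.1-fold, from 394 and 290.2 CPM to 88.2 and 78.5 CPM (log2 fold change −2.04, SE 0.20, adjusted p = 0.000288), while ENO2 was at 7.47 and 16.9 CPM on day 6 and 9.81 and 26 CPM on day 7 (log2 fold change 0.56, adjusted p = 0.709). ENO1 and PFKP were also among the 24 genes whose day 7 step was lower than the earlier steps. LDHA and LDHB, the subunits of lactate dehydrogenase, had log2 fold changes of −1.63 (adjusted p = 0.0224) and −0.83 (adjusted p = 0.0251), and the mutase gene PGAM1 one of −0.79 (adjusted p = 0.041). LDHA had already fallen, from 731 and 796 CPM on day 0 to 328 and 232 CPM on day 4. Its step to day 7 was not called against the mean daily step of days 4 to 6 (adjusted p = 0.35). On the length-scaled TPM, HK1 exceeded HK2 on both days, at 547 and 505 TPM against 10.6 and 3.2 TPM on day 6. PKLR likewise exceeded PKM, at 321 and 198 TPM against 26 and 33.2 TPM on day 6 and 230 and 124 TPM against 0.429 and 2.52 TPM on day 7. The difference in change between isozymes was not itself tested. ENO1, PFKP and PKM were also called lower with series A alone for days 7 and 8, SLC2A1 was not called there, and PFKM was called higher.

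**Figure D5:**
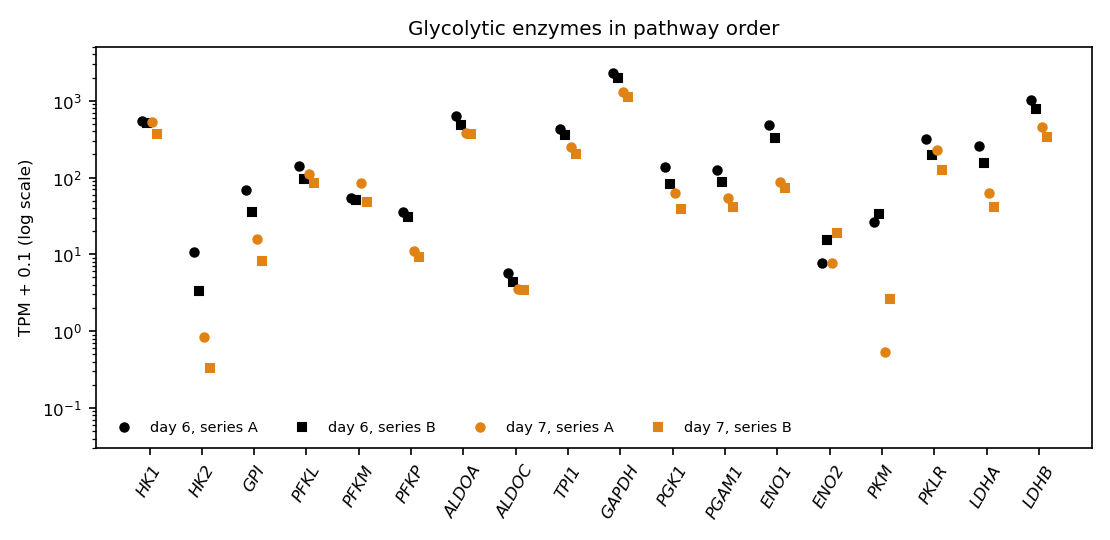
Levels of 18 glycolytic enzyme genes in pathway order, as TPM + 0.1 on a log scale, in the 4 libraries of day 6 (black) and day 7 (orange). PKM, HK2, ENO1 and PFKP drop between the days, and the days overlap for HK1, PFKL, ENO2 and PKLR.

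Of 32 ribosome assembly genes that depend on MYC, 26 were lower on day 7 without overlap and 0 were higher (median −0.73; 24.3% of all genes tested were lower without overlap). Only NIP7, a 60S assembly factor, passed the test, at 66.1 and 51.2 CPM on day 6 and 42.2 and 32.6 CPM on day 7 (log2 fold change −0.65, SE 0.16, adjusted p = 0.0491). With the term for the series of tables, 21 of them were called lower. The nucleolar genes NPM1 (log2 fold change −1.01, adjusted p = 0.0597) and DDX21 (log2 fold change −0.80, adjusted p = 0.0553) missed the test. Of 24 cholesterol synthesis genes, 2 fell (median −0.326). HMGCS1, which makes HMG-CoA, fell 3.55-fold, from 488 and 283 CPM to 99 and 118 CPM (log2 fold change −1.83, SE 0.33, adjusted p = 0.0129). It had stood at 2055 and 1643 CPM on day 0 and 836 and 684 CPM on day 4. Its step to day 7 was not called against the mean daily step of days 4 to 6 (adjusted p = 0.411). Of 16 heat shock genes, HSPE1, the mitochondrial co-chaperonin, and HSPH1, a cytosolic chaperone, fell, with log2 fold changes of −0.84 (adjusted p = 0.028) and −0.78 (adjusted p = 0.043), and the list's median was −0.537. None of these 3 lists had a call with series A alone for days 7 and 8.

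Of 38 DNA replication genes, 2 rose and 0 fell (median 0.0594), and of 33 mitosis genes 0 were called (median 0.158). The 2 were CCNE2, cyclin E2 (53.8 and 59.2 CPM on day 6 and 96.7 and 106 CPM on day 7, log2 fold change 0.85, adjusted p = 0.0263), and the thymidine kinase TK1 (114 and 121 CPM on day 6 and 213 and 201 CPM on day 7, log2 fold change 0.82, adjusted p = 0.0409). Neither was called with series A alone for days 7 and 8. Doxycycline was in the medium on both days. Of 21 genes of G1 control, E2F1 and E2F2 rose and CCND1 fell, with or without the series B libraries of days 7 and 8. E2F1 stood at 43.7 and 45.7 CPM on day 6 and 77 and 98.7 CPM on day 7 (log2 fold change 0.97, SE 0.18, adjusted p = 0.0154). CCND3, the D-type cyclin best known in erythroblasts, was at 286 and 535 CPM on day 6 and 774 and 974 CPM on day 7 and missed the test (adjusted p = 0.139). CDKN1B, the inhibitor p27, had a log2 fold change of 0.73 (adjusted p = 0.202).

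Of 17 tested members of the BCL2 family, BIK, a pro-apoptotic BH3-only gene, fell, at 1.5 and 1.22 CPM on day 6 and 0.29 and 0.497 CPM on day 7 (log2 fold change −1.78, SE 0.36, adjusted p = 0.0263). Of 22 genes that ATF4 induces, 15 were higher on day 7 without overlap, against 23.7% of all genes (median 0.855), and 1 passed, DDIT4, an inhibitor of mTORC1, at 261 and 364 CPM on day 6 and 713 and 809.5 CPM on day 7 (log2 fold change 1.28, SE 0.29, adjusted p = 0.033). The amino acid stress genes CHAC1 (log2 fold change 1.49, adjusted p = 0.051) and SESN2 (log2 fold change 1.57, adjusted p = 0.0524) missed it. Of 19 p53 targets, BTG2, an antiproliferative gene, rose, from 75.9 and 115 CPM to 228 and 286 CPM (log2 fold change 1.42, SE 0.26, adjusted p = 0.0133), and ZMAT3 fell (log2 fold change −1.11, adjusted p = 0.0386), while CDKN1A had a log2 fold change of 1.16 (adjusted p = 0.643) with overlapping days. Of 17 tested interferon response genes, 0 were called (median −0.0342). The 4 calls in these lists were not made with series A alone for days 7 and 8.

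On the CPM scale all 12 erythroid markers were higher on day 7 without overlap, against 23.7% of all genes, and 4 passed the test (EPOR, HBB, KLF1 and SLC4A1). In TPM the days of GATA1, a member of these markers, overlapped, at 296 and 279 on day 6 and 283 and 302 on day 7. The 7 megakaryocyte markers summed to 2.7 and 8.35 TPM on day 6 and 0.233 and 0.913 TPM on day 7, with PF4, PPBP, GP1BA and VWF at 0 in the 4 libraries. The 9 granulocyte and monocyte markers summed to between 0.271 and 0.637 TPM, with MPO, ELANE, PRTN3, CSF1R and S100A8 at 0. The 6 lymphocyte markers did not exceed 0.41 TPM in sum, and CD3E, CD2, MS4A1 and NKG7 were at 0. The 5 stem cell and progenitor markers summed to between 0.565 and 0.898 TPM, with SPINK2, MECOM and FLT3 at 0. The part of these markers in the falls of other genes was not tested.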

How the data were processed

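RNA was measured in 20 libraries of HUDEP-2 cells, 2 on each of 10 days, with the TruSeq Stranded mRNA kit. Per the submitters' processing notes, reads were trimmed with Trimmomatic 0.38, aligned to hg38 with HISAT2 2.1.0 and quantified with StringTie 2.1.3b; the annotation release is not given in the sources used here. The authors deposited whole-number read counts for 170322 RefSeq transcripts, which they did not normalize. The TPM values that were also deposited relate each count to transcript length and library size, and FPKM were left unused here. Of the value columns, 23 were not used. As the headers give only the day, each column was assigned to its day without a replicate number.

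Transcript counts sharing a gene symbol were added up (46425 genes) and tested in edgeR 4.0.16 (R 4.3.3; filterByExpr, TMM, glmQLFit, glmQLFTest) on all 20 libraries with a coefficient per day. The quasi-likelihood test replaced the exact test named in the paper, which is an alternative. P-values were adjusted by Benjamini-Hochberg over 16784 genes, and called under 0.05. SE is the size of the log2 fold change over the root of its F statistic. Differences within a series are of log2 CPM (prior count 2). Bounds for genes at 0 counts used the mean limit of 3 counts per library. The fits were run on simulated data in which 200 genes changed 4-fold. The main fit found 95% of these genes, and 5.94% of its calls were false. The simulated dispersion, the spread between libraries of a day beyond counting, was 0.04. The data had a common dispersion of 0.0979, so these shares may not hold for them. Library totals were 52131713 to 70358198 counts; counting limits cover counting error only, since reads without molecular identifiers are not independent molecules.

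Named genes were the 12 largest rises and 12 largest falls with a symbol other than LOC, LINC, MIR, SNOR or RNA, at least 1 CPM on the higher day, an adjusted p under 0.05 and no overlap, the 4 members of each list with the lowest p, and KIT, KITLG, EPOR, GATA1, GATA2, MYB, MYC and TRIM10. Further members of these lists, and the genes of the step contrast beyond these, are named after their values were seen. The comparison, members and lists were chosen with earlier results of these data known. Alternatives were the exact test, DESeq2 1.42.0, the 4 libraries alone, upper-quartile factors, other filters, removal of ribosomal RNA or globin genes, a term for the series of tables, limma 3.58.1 on log2(TPM + 1), and each of the 4 libraries left out. Leaving out the series B libraries of days 7 and 8 was added after seeing the data, as were the motif search and the families in the closing section. Start-site windows are from RefSeq (GRCh38.p14). Some members counted in the lists are not reported here by name.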

Additional observations from a re-analysis of the deposited data

Results flagged for a closer look

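For 24 genes the step from day 6 to day 7 differed from the mean daily step of days 4 to 6 in a test of that difference (edgeR quasi-likelihood contrast, adjusted p under 0.05). Each difference is given as log2, the day 7 step minus the mean earlier step. It was −8.48 for CRYBB3, −8.06 for GPR157, an orphan receptor, −6.83 for PALM2AKAP2, −5.85 for GCSAML, −5.60 for SAMD5 and −5.00 for NCF4. The fitted values of CRYBB3 and GPR157, both with 0 counts on day 7, depend on the prior count and are no bounds; CRYBB3 was at least 11.6-fold and GPR157 at least 9.79-fold lower on day 7 than on day 6. Among receptors it was −4.63 for CSF2RB, −4.57 for F2RL3 and −3.55 for F2R. For ETV4, FMNL1 and RHOH it was −4.35, −3.61 and −3.34. For the transporters SLC9A7 and SLCO4A1 it was −3.24 and −3.13. FABP5, a fatty acid-binding protein, and its pseudogene FABP5P7, which may share reads, had −2.84 and −3.38. The smaller differences were −2.37 for ELMO1, −2.28 for FAM83G, −2.27 for GRAMD4, −1.77 for ENO1, −1.46 for CYB561, −1.45 for the lysosomal protein LAPTM5, −1.35 for LDLRAD3 and −1.26 for PFKP. In each of the 24 genes both libraries of day 7 were below both libraries of day 6.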

How the results depend on the processing

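Counts of called genes depended on the fit. Of 1002 values of the 68 called named genes under the alternatives, 1002 had the same direction and 689 were called. All called genes had no overlap between the days and the same direction in both series, and the alternatives reused the same libraries. The shared direction therefore follows largely from that choice and is no test of it. Against 148 genes higher and 283 lower from day 6 to 7, a fit with the series term called 929 higher and 1345 lower, DESeq2 697 and 1057, limma on TPM 117 and 1538, edgeR's exact test 332 and 370, no filter 211 and 390, and the 4 libraries alone 0 and 0 (2310 of 14344 genes at an unadjusted p under 0.05). The DESeq2 calls included 146 of the 148 and 280 of the 283, those of the exact test 118 of the 148, and those of the series term all of them. Leaving out 1 library gave 4 to 80 higher and 63 to 152 lower: 4 and 63 without series A of day 6, 59 and 152 without series B of day 6, 80 and 128 without series A of day 7, and 13 and 63 without series B of day 7. Without the series B libraries of days 7 and 8, an alternative chosen after seeing the data, 29 were higher and 98 lower. For the step contrast, against 0 higher and 24 lower, DESeq2 gave 55 and 168, the series term 22 and 128, no filter 1 and 72, at least 10 counts in each library of both days 12 lower, limma 1 higher and 17 lower, and the left-out series B libraries 15 lower. Leaving out 1 library gave 0 to 1 higher and 1 to 15 lower (1 and 15 without series A and B of day 6, 7 and 11 without series A and B of day 7). A lone library of a day is assumed there to vary like the others. Upper-quartile factors and removal of ribosomal RNA or globin genes left the counts within 1.5 times. The cause of these differences was not tested. No paired analysis was possible because the columns carry no replicate number; the term for the series of tables, given above, groups libraries by deposited table instead. Changes of genes under about 3 counts a library are limited by depth.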

Other observations

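The following families were taken by symbol after values were seen, so their counts support nothing on their own. Of 10 annexin genes tested, calcium-dependent membrane binders, 5 fell and 0 rose, where 1.69% of all genes tested fell and 0.882% rose. ANXA2 stood at 47.6 and 68.9 CPM on day 6 and 6.29 and 14 CPM on day 7 (log2 fold change −2.52, SE 0.44, adjusted p = 0.00989), and ANXA1 at 12.1 and 6.18 CPM on day 6 and 0.212 and 0.418 CPM on day 7 (log2 fold change −4.85, SE 1.19, adjusted p = 0.0493), with ANXA4, ANXA6 and ANXA11 at log2 fold changes of −1.01, −3.12 and −1.58. Of 14 KLF genes tested, 5 rose (KLF1, KLF3, KLF10, KLF11 and KLF13) and KLF15 fell, from 2.77 and 1.77 CPM to 0.386 and 0.318 CPM (log2 fold change −2.68, SE 0.39, adjusted p = 0.00448). KLF10, a TGF-beta-induced factor, stood at 67.5 and 87.7 CPM on day 6 and 168 and 221 CPM on day 7 (log2 fold change 1.32, SE 0.20, adjusted p = 0.00487). Of 8 E2F genes, E2F1 and E2F2 rose and E2F5 fell (log2 fold change −2.59, adjusted p = 0.0267). Of 23 interleukin, colony-stimulating factor and related receptors tested, CSF2RB, IL2RB and IL4R fell and EPOR and IL1R1 rose. IL2RB was near the counting limit, with 8 and 6 counts on day 6 and 0 and 0 on day 7, and its fall is bounded only at 1.82-fold or more. IL4R stood at 24.9 and 27.8 CPM on day 6 and 11.9 and 12.5 CPM on day 7 (log2 fold change −1.11, SE 0.25, adjusted p = 0.0354).

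Some further genes are given as single values, each chosen after its values were seen. VIM, the intermediate filament protein vimentin, fell 6.63-fold, from 19.1 and 18.6 CPM to 2.22 and 3.46 CPM (log2 fold change −2.73, SE 0.40, adjusted p = 0.00419). It had stood at 1029 and 1127 CPM on day 0 and had thus fallen before day 6 as well. The actin bundler LCP1 stood at 72.8 and 54 CPM on day 6 and 12.9 and 8.62 CPM on day 7 (log2 fold change −2.56, SE 0.35, adjusted p = 0.00252), and moesin, MSN, a linker of membrane and actin, at 301 and 257 CPM on day 6 and 77 and 55.9 CPM on day 7 (log2 fold change −2.07, SE 0.29, adjusted p = 0.00282). Ezrin, EZR, the related linker, had a log2 fold change of −0.70 (adjusted p = 0.0238), and filamin A, FLNA, one of −0.87 (adjusted p = 0.0326). In the other direction, PRDX2, the abundant peroxiredoxin of red cells, rose from 1444 and 1965 CPM to 2907 and 2593 CPM (log2 fold change 0.69, SE 0.16, adjusted p = 0.0444), and BLVRB, a flavin and biliverdin reductase, from 622 and 762 CPM to 1138 and 1182 CPM (log2 fold change 0.74, SE 0.16, adjusted p = 0.0272).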
